A study of Mus musculus with 4 samples.

Results

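The δ-cells described here are the somatostatin-secreting cells of mouse islets left untreated or exposed to IL-1β and IFN-γ together for 6 h. They were chosen by their transcripts. A barcode was kept if 200 to 4000 genes were detected and no more than 12% of its UMIs were mitochondrial, where a UMI (unique molecular identifier) marks 1 captured transcript. It was called a δ-cell when *Sst* made up at least 2% of its UMIs and was above *Ppy*, *Ins1* and *Ins2* together were under 2% and *Gcg* was under 1%. This gave 59 untreated δ-cells and 97 δ-cells treated with both cytokines, or 156 of the 3331 kept cells of these libraries. The cells treated with IL-1β alone (155) or IFN-γ alone (172) give the levels with a single cytokine, so that 483 of 7471 kept cells entered.

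The islets came from adult male mice, given as C57BL/6 in the sample labels and as C57BL6/J in the paper. A single pool of them was divided among the 4 conditions (no cytokine, IL-1β, IFN-γ, or both for 6 h). Whole islets were exposed to the cytokines in culture, and each sample gave 1 library of droplet-based single-cell RNA sequencing. No difference between the libraries therefore has a replicate check, no test was run, and no p-value is given. The values are levels and ratios with intervals of the counting error alone.

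δ-Cells release somatostatin, which restrains the secretion of insulin and glucagon by neighboring β- and α-cells. IL-1β signals through its receptor to NF-κB, which drives genes for chemokines, adhesion molecules and its own inhibitors. IFN-γ signals through JAK kinases to STAT factors, which bind GAS elements and raise interferon regulatory factors (IRFs), and ISRE elements bind IRFs and STAT-IRF complexes. Genes with sites for both kinds of factor, such as those for some chemokines, can respond to both cytokines.

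The sequences just before the start of 4 genes described below are shown because these genes differed in which cytokine went with their level. *Cxcl10* was high only where both were present, and *Cxcl1* was high wherever IL-1β was present. *Ifit3* and *Isg15* were higher with IFN-γ than with IL-1β, and several-fold higher again with both. The sequences are from RefSeq for the mouse build GRCm38.p6, from 250 to 11 bases before the start of the gene, on the strand of the gene. The intervals are chr5:92348900-92349139 on the minus strand for *Cxcl10*, chr19:34583279-34583518 on the plus strand for *Ifit3*, chr4:156200829-156201068 on the minus strand for *Isg15* and chr5:90890995-90891234 on the plus strand for *Cxcl1*. Capitals mark matches on either strand to the GAS motif (TTCNNNGAA), the ISRE core (GAAA, any 2 bases and GAAA) or the NF-κB consensus.
Cxcl10: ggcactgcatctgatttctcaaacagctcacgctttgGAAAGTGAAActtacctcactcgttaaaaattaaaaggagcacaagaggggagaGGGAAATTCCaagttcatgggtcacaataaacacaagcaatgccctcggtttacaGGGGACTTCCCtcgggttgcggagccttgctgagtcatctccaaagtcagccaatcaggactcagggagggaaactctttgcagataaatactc
Ifit3: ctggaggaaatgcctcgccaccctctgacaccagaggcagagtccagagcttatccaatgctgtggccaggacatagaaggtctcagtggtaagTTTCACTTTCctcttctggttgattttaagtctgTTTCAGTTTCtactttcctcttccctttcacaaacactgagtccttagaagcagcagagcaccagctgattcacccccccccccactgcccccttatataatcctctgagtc
Isg15: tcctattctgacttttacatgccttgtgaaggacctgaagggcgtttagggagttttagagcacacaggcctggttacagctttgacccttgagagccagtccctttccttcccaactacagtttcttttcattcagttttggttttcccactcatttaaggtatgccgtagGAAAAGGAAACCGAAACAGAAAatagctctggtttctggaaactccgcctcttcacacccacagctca
Cxcl1: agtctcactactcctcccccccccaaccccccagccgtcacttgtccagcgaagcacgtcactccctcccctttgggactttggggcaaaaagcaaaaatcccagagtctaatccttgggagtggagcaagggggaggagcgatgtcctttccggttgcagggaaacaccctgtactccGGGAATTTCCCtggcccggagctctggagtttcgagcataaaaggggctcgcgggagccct

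The *Cxcl10* sequence holds an ISRE core that begins 213 bases before the start and NF-κB matches that begin 159, 104 and 103 bases before it, the latter pair overlapping. *Ifit3* has ISRE cores at 156 and 122 bases, and *Isg15* has a run of 3 overlapping ISRE cores at 78, 72 and 66 bases. *Cxcl1* has overlapping NF-κB matches at 71 and 70 bases and no match to the other motifs. Among all 32851 promoters of the table, searched over the same 250 bases, 7.02% hold a GAS match, 2.98% an ISRE core and 7.25% an NF-κB match, and 0.633% hold an NF-κB match together with an ISRE core or GAS. Of the 15 genes that ranked highest with both cytokines against untreated (named below), 10 had a promoter in the table, with a GAS match in 2, an ISRE core in 5 and an NF-κB match in 6. *Gbp4*, *Iigp1*, *Nos2*, *Gbp9* and *Gbp6* were those not matched. The promoter of *Icam1*, which was high under IL-1β and higher with both cytokines, holds a GAS match 42 bases before the start and no other. Those of *Cxcl9* and *Atf3*, highest with both cytokines, hold no match. Only exact matches were searched, so a promoter without a match can still hold a site with other letters. A link between motif and cytokine was not tested. The 4 printed sequences were chosen with the levels of the genes known, and a match is a description of letters and is not a bound site.

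The libraries differed in depth. δ-Cells had a median of 8696 UMIs untreated, 4817 under IL-1β, 7167.5 under IFN-γ and 5990 under both, and these cells together held 502367, 799959, 1260256 and 639785 UMIs in that order. The level of a gene is given as its UMIs summed over the δ-cells of a library, per 1000000 UMIs of those cells (CPM). A single UMI was worth 1.99 CPM in the untreated δ-cells and 1.56 CPM in those with both cytokines, and where a library had no UMI of a gene, 3 UMIs were taken as the limit that this allows. The highest barcode depth among δ-cells was 14414 UMIs untreated and 18652 with both, and the lowest was 875 and 552. The upper gene limit left out 18 further untreated barcodes and 2 with both cytokines that met the other conditions. δ-Cells were 3.88% of kept untreated cells (exact binomial 95% interval, 2.97 to 4.98) and 5.36% with both cytokines (4.37 to 6.50), a share that this limit can set. No barcode of a δ-cell occurred in more than 1 library, while 16 were shared among all barcodes. Scrublet called too few doublets to be of use (0.0326% to 0.322% of scored barcodes and no δ-cell), so that the upper gene limit and the hormone limits were the only steps against doublets.

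Markers of δ-cells were present. *Rbp4*, a retinol carrier abundant in mouse δ-cells, was at 4242 CPM untreated and 3318 CPM with both cytokines, but at 2703 and 1767 CPM in α-cells, so that it separates these cell types little. *Hhex*, the transcription factor that maintains δ-cells, was detected in 74.6% of untreated δ-cells, 0.348% of untreated β-cells and no untreated α-cell, but also in 31.0% of untreated endothelial cells and 35.3% of untreated macrophages. *Ptprz1*, a receptor phosphatase, was at 87.6 CPM untreated and 95.3 CPM with both. *Sst* itself, which was used to choose the cells, made up 9.63% of δ-cell UMIs untreated and 8.46% with both. Near the limit of 2%, 1 untreated cell and 7 cells with both cytokines that met the other conditions had *Sst* at 1 to 2% of UMIs, and 4 and 9 δ-cells had it at 2 to 3%. *Ppy*, the pancreatic polypeptide gene, was at 26789 CPM untreated and 22056 CPM with both and by the rule was below *Sst* in every δ-cell.

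Markers of other islet cells were low, and their part in the results was not tested except where stated. Insulin transcripts in δ-cells were 1.25% of their level in β-cells untreated and 0.416% with both cytokines. The β-cell genes *Mafa* and *Ucn3* had 11 and 0 UMIs untreated and 2 and 1 with both. The 6 α-cell markers summed to 498 CPM untreated and 264 CPM with both, with a UMI of 4 of them in each. Most of this was *Gcg* (326 and 127 CPM), which the rule limits, and *Gc* (127 and 117 CPM, in 54.2% and 46.4% of δ-cells), while *Ttr* was at 41.8 and 10.9 CPM and *Loxl4* had no UMI in δ- or α-cells. Of 6 endothelial markers, 3 had a UMI untreated and 2 with both (21.9 and 18.8 CPM in sum), *Egfl7* had the most, and *Flt1*, *Kdr* and *Cdh5* had none. In the IL-1β library these markers summed to 126 CPM, with 37 UMIs of *Flt1* and 27 of *Plvap*, each in 1 cell that met the conditions for a δ-cell. Of 7 macrophage markers, 3 had a UMI untreated and 4 with both (102 and 98.5 CPM in sum), mostly of *C1qa* (45 and 52 UMIs), while *Ptprc* and *Laptm5* had none in any library. Mesenchymal markers summed to 2 UMIs untreated, with 2 of 5 detected, and none with both. Of 5 acinar markers, 4 were detected untreated and 5 with both (414 and 250 CPM in sum), mostly *Cela1* (338 and 236 CPM), with *Cpa1* at 0 and 1 UMI. Of 5 ductal markers, 4 were detected in each (193 and 200 CPM in sum), mostly *Krt7* (173 and 127 CPM), with *Krt17* at 0.

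With both cytokines, δ-cells had higher transcript levels of chemokine, adhesion, antigen presentation and interferon-response genes, and lower levels of several δ-cell and secretory genes. Of 3426 genes with at least 50 UMIs summed over the untreated and combined δ-cells, 476 (13.9%) were at least 2-fold higher with both cytokines and 343 (10.0%) at least 2-fold lower, and the median ratio over all of them was 0.977. At least 10-fold higher were 98 genes, whereas 21 were at least 5-fold lower. No UMI of 27 of the higher genes was found in untreated δ-cells. The number of lower genes depended on which cells entered, at 590 without the upper gene limit and 219 with *Sst* at 5% of UMIs or more. Genes that were low untreated could pass the limit of 50 UMIs only through the combined library, so the counts of listed genes below describe these cells and support nothing further. Each such count is to be read beside the 13.9% higher and 10.0% lower of all genes.

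**Figure D1:**
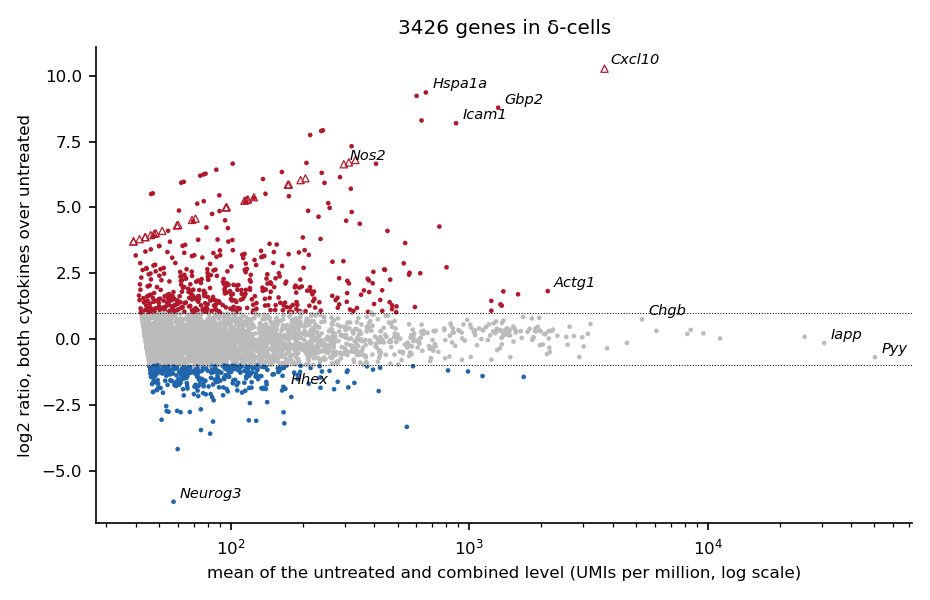
Each point is 1 of 3426 genes in δ-cells, with the mean of the untreated and combined level (CPM, log scale) on the x axis and the log2 ratio of both cytokines to untreated on the y axis. Red and blue points are the 476 genes at least 2-fold higher and the 343 at least 2-fold lower, open triangles are lower bounds for genes with no untreated UMI, and *Cxcl10* lies at the top and *Neurog3* at the bottom.

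*Cxcl10* ranked first, and 3 chemokine genes were among the 15 highest. It encodes a ligand of CXCR3 that attracts T cells, and was at 0 CPM in untreated δ-cells, 62.5 CPM under IL-1β, 36.5 CPM under IFN-γ and 7381 CPM under both cytokines. The combined level was 1236-fold the untreated limit, with a 95% lower bound of 1005, and 595- to 2079-fold over the alternatives. This level was 118-fold that with IL-1β (95% interval, 89.4 to 159). It was detected in 86.6% of the combined δ-cells, with a median of 51.0 and a highest value of 350 UMIs per 10000, so that it was not the product of a few cells. *Cxcl10* was also found in 84.0% of combined β-cells, at 2684 CPM, and in 22 of 23 endothelial cells, at 18921 CPM.

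*Cxcl1* and *Cxcl2*, which attract neutrophils, went with IL-1β. *Cxcl1* was at 1.99, 655, 0.793 and 485 CPM by library (untreated, IL-1β alone, IFN-γ alone, combined), and *Cxcl2* was at 0, 400, 4.76 and 411 CPM. For *Cxcl1* the combined level was 243-fold the untreated one, from 1 untreated UMI (43.4 to 9645), and 0.740 of that with IL-1β (0.641 to 0.853). *Cxcl1* was found in 36.1% of combined δ-cells and 36.8% of those with IL-1β, and 5 cells held 48.1% and 41.8% of its UMIs, a spread between cells that the counting interval does not cover. *Cxcl2* came from fewer cells, since it was detected in 18.6% of combined δ-cells and 5 of them held 68.8% of its UMIs.

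Other chemokines had most of their level with both cytokines. *Ccl2*, which attracts monocytes, was at 25.9 CPM untreated, 58.8 CPM under IL-1β, 25.4 CPM under IFN-γ and 583 CPM under both, of which 5 cells held 57.1%. *Ccl5* was at 1.99, 10.0, 3.17 and 122 CPM in that order. *Cxcl9*, another CXCR3 ligand, had no UMI in the other 3 libraries and 233 CPM with both, at least 62.1-fold above the limit with IL-1β, but only 11.3% of combined δ-cells had a UMI of it and 5 cells held 87.2% of its UMIs. *Ccl20* ran the other way, with 169 CPM with IL-1β and 43.8 CPM with both. In all, 6 of 13 chemokine genes passed the UMI limit. All 6 were at least 2-fold higher with both, with a median ratio of 65.0. Members without an untreated UMI entered at their ratio to the untreated limit.

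*Icam1*, the adhesion molecule that binds leukocyte integrins, was at 5.97 CPM untreated, 433 CPM under IL-1β, 29.4 CPM under IFN-γ and 1754 CPM under both. The combined level was 294-fold the untreated one (100.2 to 1426) and 4.05-fold that with IL-1β (3.59 to 4.59). It was found in 88.7% of combined δ-cells and 66.5% of those with IL-1β. *Cd274*, which encodes the checkpoint ligand PD-L1, had its level with IFN-γ instead, at 3.98, 1.25, 237 and 411 CPM by library (untreated, IL-1β alone, IFN-γ alone, combined). *Cd40*, a costimulatory receptor, was at 18.8 CPM with IL-1β, 120 CPM with both and without a UMI otherwise. Of 12 adhesion, checkpoint and costimulatory genes, 5 passed the limit and all were at least 2-fold higher, including *Cd47* (2.36) and *Tlr2* (9.42).

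**Figure D2:**
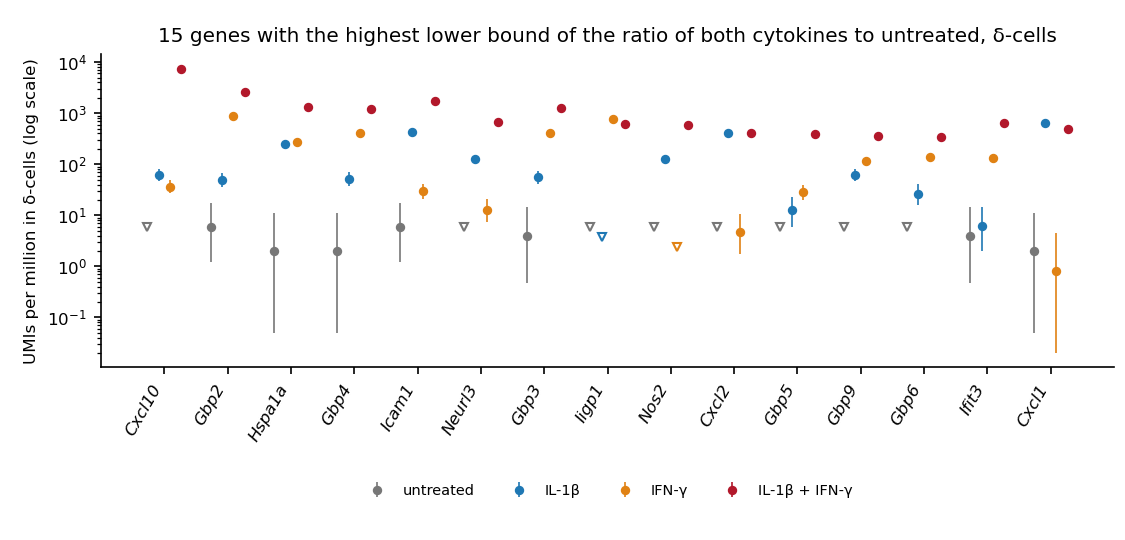
Levels (CPM in δ-cells, log scale) of the 15 genes with the highest lower bound of the ratio of both cytokines to untreated, in the untreated (gray), IL-1β (blue), IFN-γ (orange) and combined (red) library. Bars are exact Poisson 95% intervals and open triangles mark the limit of 3 UMIs where a library had none, and the combined level is the highest of the 4 for each gene except *Iigp1* and *Cxcl1*.

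Guanylate-binding proteins, interferon-induced GTPases that act against intracellular pathogens, made up 6 of the 15 highest-ranked genes. *Gbp2* was at 5.97 CPM untreated, 50 CPM under IL-1β, 862 CPM under IFN-γ and 2638 CPM under both, 442-fold the untreated level (151 to 2145). *Gbp3* was at 3.98, 56.3, 410 and 1257 CPM and *Gbp4* at 1.99, 52.5, 407 and 1200 CPM in that order. With IL-1β beside IFN-γ the level of each was higher than with IFN-γ alone, at 3.06-fold for *Gbp2* (2.84 to 3.31), 3.06-fold for *Gbp3* and 2.95-fold for *Gbp4*. *Gbp5* differed more, from 28.6 CPM with IFN-γ to 392 CPM with both, or 13.7-fold (9.66 to 20.1). *Gbp9* and *Gbp6* were at 350 and 347 CPM with both and had no untreated UMI. All 9 family members past the limit, of 10 in the file, were at least 2-fold higher with both cytokines than untreated, with a median ratio of 65.7. Several of these genes are near-identical copies, so that reads could be split among them and the level of each is less certain than that of the family.

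The immunity-related GTPases, another interferon-induced family, which targets pathogen vacuoles, did not show this addition. *Iigp1* had no UMI untreated or under IL-1β, and was at 761 CPM under IFN-γ and 625 CPM under both, 0.822 of the former (0.729 to 0.924). *Irgm1* was at 31.8 CPM untreated, 28.8 CPM under IL-1β, 652 CPM under IFN-γ and 663 CPM under both, and *Igtp* was at 7.96, 2.50, 448 and 486 CPM. Of 6423 genes with at least 50 UMIs over the 3 treated libraries, 165 (2.57%) were at least 2-fold above the higher single-cytokine level, with a median ratio of 0.779 over all 6423. By this measure 7 of 9 guanylate-binding protein genes and 0 of 9 immunity-related GTPase genes were above, with median ratios of 2.96 and 1.02. These ratios are of single libraries, and the difference between the families was not tested.

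Antiviral effectors that passed the UMI limit were higher with both cytokines than untreated. *Isg15*, a ubiquitin-like modifier, was at 7.96 CPM untreated, 13.8 CPM under IL-1β, 87.3 CPM under IFN-γ and 805 CPM under both, 9.22-fold above IFN-γ (7.49 to 11.4). *Ifit3* was at 3.98, 6.25, 134 and 638 CPM and *Ifit2*, which like *Ifit3* encodes a protein that binds viral RNA complexes, at 1.99, 8.75, 103 and 477 CPM. *Ifitm3*, which blocks viral entry, was at 0, 7.5, 20.6 and 250 CPM. All 19 of 27 such genes past the limit were at least 2-fold higher with both, with a median ratio of 9.33, and 11 of 20 past the limit over the treated libraries were at least 2-fold above the higher single cytokine. *Zbp1* (271 and 274 CPM), *Bst2* (288 and 316 CPM) and *Eif2ak2* (117 and 103 CPM), in contrast, had like levels with IFN-γ and with both. *Ifit3b*, a close copy of *Ifit3*, was at 152 CPM with both, and reads of the pair may be split.

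The MHC class I pathway, which presents peptides to cytotoxic T cells, was higher with both cytokines for 16 of 17 genes past the limit (of 18), and the median ratio was 5.66. *B2m*, the light chain of the complex, was at 211 CPM untreated, 385 CPM under IL-1β, 561 CPM under IFN-γ and 1394 CPM under both. *Tap1*, a subunit of the peptide transporter, was at 5.97, 22.5, 252 and 475 CPM, and the immunoproteasome gene *Psmb8* at 127, 221, 819 and 935 CPM. Immunoproteasome genes were near their combined level with IFN-γ alone, with ratios of 1.14 for *Psmb8*, 1.18 for *Psmb9* and 1.10 for *Psmb10*, whereas *B2m* was 2.49-fold above it. *Erap1*, a peptide trimming enzyme, was the gene short of 2-fold, at a ratio of 1.88. Of 7 MHC class II genes, *Cd74*, the invariant chain, passed the limit, with 17.9 CPM untreated and 186 CPM with both.

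Transcription factors of both pathways were among the higher genes. *Irf1* was at 49.8 CPM untreated, 45.0 CPM under IL-1β, 318 CPM under IFN-γ and 858 CPM under both, and was thus 2.70-fold higher with both than with IFN-γ. *Irf8* had no untreated UMI and was at 78.2 CPM with both, against 15.9 CPM with IFN-γ. All 8 STAT and IRF genes past the limit, of 14, were at least 2-fold higher than untreated, with a median ratio of 13.0.

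Several genes of the NF-κB pathway were higher under IL-1β alone than under IFN-γ alone. *Nfkbia*, which encodes the inhibitor IκBα, was at 73.7 CPM untreated, 786 CPM under IL-1β, 89.7 CPM under IFN-γ and 1424 CPM under both. *Birc3*, a ubiquitin ligase of this pathway, was at 3.98, 250, 15.9 and 269 CPM, and *Tnfaip3*, the inhibitor A20, at 0, 37.5, 4.76 and 87.5 CPM. Adding IFN-γ to IL-1β went with 1.81-fold the level of *Nfkbia* and 1.08-fold that of *Birc3*. Of 18 such genes, 11 passed the limit and 9 were at least 2-fold higher, with a median ratio of 9.16. *Birc2* (1.60) and *Ikbkb* (1.83), for a ubiquitin ligase and a kinase upstream of NF-κB, were the remaining pair.

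Receptors and feedback genes were mixed. *Il1r1*, the IL-1 receptor, was at 87.6 CPM untreated, 90 CPM under IL-1β, 125 CPM under IFN-γ and 37.5 CPM under both, a ratio of 0.428 to untreated (0.249 to 0.720). *Ifngr2*, a chain of the IFN-γ receptor, was at 19.9, 72.5, 8.73 and 117 CPM, and *Jak2* was at 27.9, 48.8, 24.6 and 105 CPM. *Ifngr1*, the other chain, was at 27.9 CPM untreated and 9.38 CPM with both, and had too few UMIs for the limit. Of 14 receptor and proximal genes, 5 passed the limit, with 2 higher and 1 lower by at least 2-fold and a median ratio of 1.68. The shares of all genes were 13.9% and 10.0%. No gene of this list was 2-fold lower once cells with over 10 *Hspa1a* UMIs per 10000 were left out, an alternative chosen after seeing the data. *Socs1*, which inhibits JAK kinases, was at 1.99 CPM untreated and 172 CPM with both, and 4 of 5 feedback genes past the limit (of 8) were higher, with a median ratio of 4.86.

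**Figure D3:**
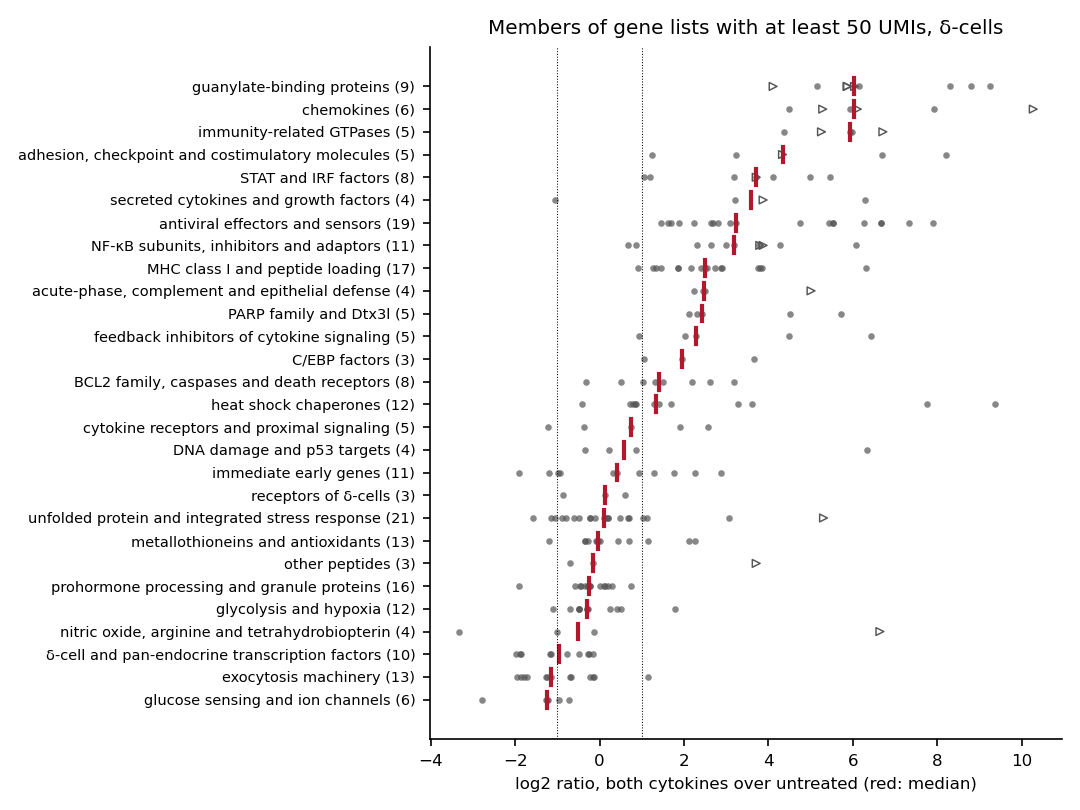
Each point is a gene with at least 50 UMIs over untreated and combined δ-cells, placed by its log2 ratio of both cytokines to untreated (x axis) in its gene list (y axis, number of genes in parentheses), open triangles are lower bounds, red bars are medians and dotted lines mark 2-fold. Medians of the 15 upper lists lie above 1 on the log2 scale, and those of transcription factors, exocytosis machinery and ion channels lie at the bottom.

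Smaller lists of response genes gave like counts. All 5 PARP family genes past the limit (of 8) were at least 2-fold higher, with a median ratio of 5.41, and *Parp14* reached 625 CPM from 11.9 CPM untreated. The 3 C/EBP genes past the limit (of 4) were higher, with a median ratio of 3.87, among them *Cebpd*, an acute-phase regulator, at 79.6, 941, 106 and 997 CPM by library (untreated, IL-1β alone, IFN-γ alone, combined). *Lcn2*, which sequesters bacterial iron carriers, and *Steap4*, a metalloreductase, were high with IL-1β (364 and 188 CPM) and much lower with both (40.6 and 57.8 CPM), and neither passed the limit in the untreated and combined cells. *Acod1*, the enzyme that makes itaconate, was at 0, 20, 4.76 and 192 CPM, and it was 1 of 4 acute-phase, complement and epithelial defense genes past the limit (of 17), all of them higher, with a median ratio of 5.58. Of 12 cytokine and growth factor genes, 4 passed, with *Csf1* (77.7), *Lif* (14.7 times the untreated limit) and *Tnfsf10* (9.21) higher and *Vegfa* lower (0.481). No gene of this list was 2-fold lower with *Sst* at 5% of UMIs or more, or with each cell weighted equally.

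*Nos2*, the inducible nitric oxide synthase, had no UMI in untreated δ-cells or in those with IFN-γ, and was at 128 CPM with IL-1β and 596 CPM with both, 4.67-fold higher (3.74 to 5.87). It was detected in 0 of 59 untreated δ-cells, where 3 counts of the total allow a share of cells with a UMI of up to 5.08% (exact binomial upper limit, 6.06%), in 37 of 155 with IL-1β (23.9%, exact binomial 95% interval 17.4 to 31.4), in 0 of 172 with IFN-γ and in 58 of 97 with both (59.8%, 49.3 to 69.6). With each cell thinned to 4000 UMIs, which left out 13 shallower combined δ-cells and 37 with IL-1β, the shares were 60.7% with both and 18.6% with IL-1β. In the combined library, 72.1% of β-cells and 32.9% of α-cells had a UMI of *Nos2*, or 62.3% and 22.7% after thinning. For background, 5 of 23 endothelial cells (21.7%) and 0 of 29 macrophages of that library had one, at median depths of 10371 and 9484 UMIs against 5990 in δ-cells.

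δ-Cells with and without *Nos2* were set side by side as a description. In the combined library the 58 cells with *Nos2* had a median of 6478 UMIs and the 39 without it 5604, so the split can follow depth in part. *Cxcl10* was at 9415 CPM with *Nos2* and 4091 CPM without, and *Icam1* was at 2251 and 949 CPM. In the IL-1β library, *Cxcl10* was at 38.4 CPM in the 37 cells with *Nos2* and 71.0 CPM in the 118 without, with overlapping intervals, and *Icam1* was at 532 and 397 CPM, also with overlapping intervals. In the combined library *Hspa1a* ran the other way, at 913 CPM (821 to 1012) in cells with *Nos2* and 1959 CPM (1788 to 2143) in those without. Of its UMIs in that library, 5 cells held 29.9%, and these counting intervals do not cover the spread between cells.

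**Figure D4:**
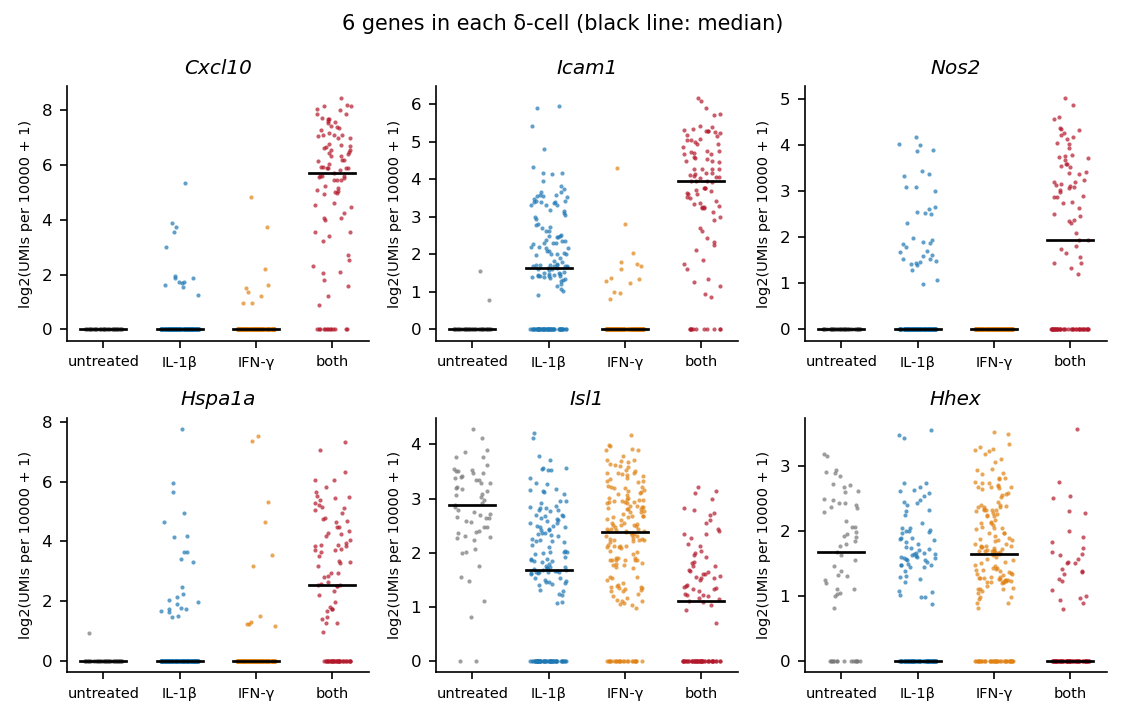
Each point is 1 δ-cell, with its library on the x axis and log2 of UMIs per 10000 plus 1 on the y axis, for *Cxcl10*, *Icam1*, *Nos2*, *Hspa1a*, *Isl1* and *Hhex*, and black lines are medians. The combined library has the highest medians of *Cxcl10*, *Icam1*, *Nos2* and *Hspa1a* and the lowest median of *Isl1*, and some of its cells have no UMI of each gene. The median of *Hhex* is 0 in the IL-1β library and in the combined library.

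Genes for a cofactor of nitric oxide synthase, tetrahydrobiopterin, did not rank with *Nos2*. *Gch1*, which starts its synthesis, was at 577 CPM untreated and 525 CPM with both, while *Pts*, of the same route, was at 173 and 86.0 CPM.

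*Hspa1a*, an inducible HSP70 chaperone, was at 1.99 CPM untreated, 251 CPM under IL-1β, 277 CPM under IFN-γ and 1313 CPM under both. A single untreated UMI stood behind the ratio of 660 (118 to 26083). Its UMIs were spread unevenly, since 5 cells held 71.1% of them under IL-1β, 97.7% under IFN-γ and 29.9% under both, and 66.0% of combined δ-cells had a UMI. It is nearly identical to *Hspa1b*, which was at 428 CPM with both, so reads may be split between them. Of 12 heat shock chaperone genes, all past the limit, 7 were at least 2-fold higher with both, beside 13.9% of all genes. The median ratio was 2.54, and *Dnajb1* (12.3), *Hspb1* (9.77) and *Hsp90aa1* (3.24) were among the higher ones. With δ-cells of over 10 *Hspa1a* UMIs per 10000 left out, an alternative chosen after seeing the data, 382 genes were higher and 290 lower over all genes. In this list 5 were higher and the median was 1.66, but since a member of the list chose the cells, some of that fall was built in.

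Unfolded protein and integrated stress response genes were mixed. *Atf3*, a stress-induced factor, had no untreated UMI and was at 15 CPM under IL-1β, 6.35 CPM under IFN-γ and 236 CPM under both, 15.7-fold above IL-1β (8.75 to 31.1). *Ddit3*, the factor CHOP, was at 23.9, 91.3, 28.6 and 202 CPM, and *Atf4* was at 199, 294, 152 and 433 CPM. Chaperones of the endoplasmic reticulum did not go with them, as *Hspa5* (BiP) was at 1003 CPM untreated and 1114 CPM with both and *Sdf2l1* and *Pdia4* were lower (0.335 and 0.449). Of 21 genes past the limit, of 23, 4 were higher and 3 lower by at least 2-fold, not far from the 13.9% and 10.0% of all genes, and the median ratio was 1.07. *Fos* (0.269) and *Ier2* (0.436), immediate early genes, were lower, and *Klf6* (7.29), *Fosl2* (4.81), *Ier3* (3.39) and *Junb* (2.43) higher, among 11 of 17 past the limit with a median ratio of 1.32.

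Of 24 genes of cell survival and death, 8 passed the limit. *Tnfrsf1a*, a TNF receptor, was at 61.7 CPM untreated and 280 CPM with both, and *Bcl2l11*, the pro-apoptotic BIM, was at 7.96 and 71.9 CPM. The pro-survival genes *Mcl1* (2.49) and *Bcl2l1* (2.84) were higher as well, as was *Cflar* (2.03), which restrains caspase activation. Thus 6 of these 8 were at least 2-fold higher, on both sides of the pathway, with a median ratio of 2.66. *Sod2*, the mitochondrial superoxide dismutase, was at 161 CPM untreated, 575 CPM under IL-1β, 159 CPM under IFN-γ and 771 CPM under both, and *Gpx1* was at 147, 594, 244 and 639 CPM. Among 13 antioxidant genes past the limit, of 19, 3 were higher and 1 (*Gclc*, 0.439) lower. Over all genes the shares were 13.9% higher and 10.0% lower, and the median ratio of this list was 0.972.

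Lower levels were found for transcription factors of δ- and other endocrine cells. *Hhex* was at 265 CPM untreated, 125 CPM under IL-1β, 263 CPM under IFN-γ and 71.9 CPM under both, 3.68-fold lower than untreated, and it was detected in 29.9% of combined δ-cells. *Isl1*, a pan-endocrine factor, was at 665, 318, 478 and 169 CPM, and *Etv1* was at 215, 130, 254 and 59.4 CPM. The IFN-γ level of *Hhex* and *Etv1* was near or above the untreated one, and the combined level of all 3 was the lowest of the 4 libraries. Of 17 such genes, 10 passed the limit, and 5 were at least 2-fold lower and none higher, beside 10.0% and 13.9% of all genes. The median ratio was 0.516 beside 0.977 over all genes. *Pdx1* (0.449) and *Neurod1* (0.447) were the other lower factors, whereas *Insm1* (0.841) and *Foxa2* (0.894) were close to untreated.

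The exocytosis machinery was lower for 7 of 13 genes past the limit, of 16, and higher for 1, with a median ratio of 0.450. Of all genes, 10.0% were at least 2-fold lower and 13.9% higher. *Syt13*, a synaptotagmin, was at 372 CPM untreated, 158 CPM under IL-1β, 303 CPM under IFN-γ and 103 CPM under both, and *Cplx2*, a complexin that clamps vesicle fusion, was at 183, 53.8, 153 and 46.9 CPM. *Rab27a* (0.290) and *Rab3b* (0.303), GTPases of secretory granules, were also lower, while *Snap25* (0.905) and *Syt4* (0.914) were not. *Kcnk16*, the potassium channel TALK-1, was at 291, 60, 202 and 42.2 CPM, 6.89-fold lower with both than untreated. The calcium channel gene *Cacna1a* (0.426) and the sodium channel genes *Scn3a* (0.423) and *Scn9a* (0.414) were lower as well, so that 4 of 6 glucose sensing and channel genes past the limit, of 17, were at least 2-fold lower, with a median ratio of 0.424. *Abcc8*, a subunit of the ATP-sensitive potassium channel, was just short of this at 0.511.

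Prohormone processing and granule genes were mostly within 2-fold. Among 16 of 17 prohormone processing and granule genes past the limit, *Scgn*, for the calcium sensor secretagogin, was the 1 at least 2-fold lower (0.267), and the median ratio was 0.843. *Chgb*, a granin, was at 3957 CPM untreated, 6538 CPM under IL-1β, 6713 CPM under IFN-γ and 6641 CPM under both, the gene with the largest gain in CPM after *Cxcl10* at a ratio of 1.68. *Pyy*, which encodes peptide YY, had the largest loss, at 62009 CPM untreated, 35256 CPM under IL-1β, 61799 CPM under IFN-γ and 38415 CPM under both, or 0.620 of untreated. *Iapp*, for islet amyloid polypeptide, was at 32377 CPM untreated and 29135 CPM with both, a ratio of 0.90 (0.881 to 0.919).

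**Figure D5:**
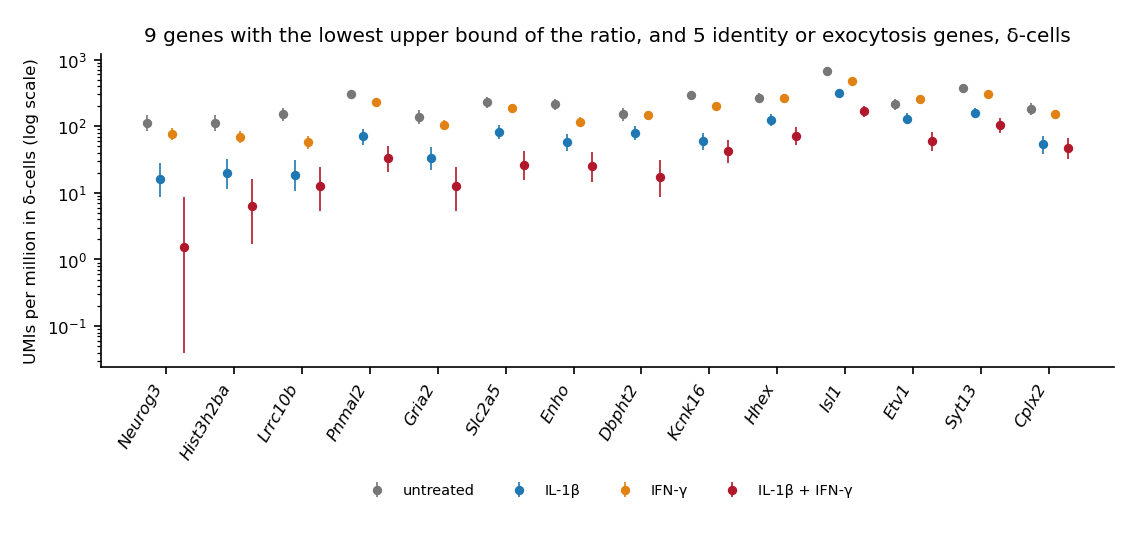
Levels (CPM in δ-cells, log scale) of 9 of the 10 genes with the lowest upper bound of the ratio of both cytokines to untreated and of 5 identity or exocytosis genes, with exact Poisson 95% intervals, in the untreated (gray), IL-1β (blue), IFN-γ (orange) and combined (red) library. In all 14 the combined level is the lowest of the 4 and the IL-1β level lies below the IFN-γ level.

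*Neurog3*, the proendocrine factor, ranked lowest of all tested genes, at 113 CPM untreated (57 UMIs), 16.3 CPM under IL-1β, 76.2 CPM under IFN-γ and 1.56 CPM under both (1 UMI), 72.6-fold lower than untreated (12.5 to 2917). *Gria2*, an AMPA receptor subunit, was at 137, 33.8, 106 and 12.5 CPM. *Slc2a5*, a fructose transporter, was at 229, 82.5, 186 and 26.6 CPM, and *Enho*, for the peptide adropin, at 213, 57.5, 117 and 25 CPM. In each of these the IL-1β level was below the IFN-γ level and the combined level was the lowest. Of the 6423 genes past the limit over the treated libraries, 387 (6.03%) were at least 2-fold below the lower single-cytokine level. *Hist3h2ba*, a histone gene, *Lrrc10b*, *Pnmal2* and *Dbpht2* were also among the 10 lowest, at 18.1-, 12.1-, 9.22- and 8.80-fold lower than untreated.

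The last group is of the genes that ranked highest above the higher single-cytokine level. Beside *Cxcl10*, *Cxcl9*, *Gbp5*, *Atf3*, *Ifitm3*, *Isg15* and *Ccl2*, this ranking named *Serpina3f*, a serine protease inhibitor, with no UMI untreated or under IL-1β, 3.17 CPM under IFN-γ and 96.9 CPM under both, 30.5-fold above IFN-γ (11.3 to 116). Of the 476 genes at least 2-fold higher than untreated, 115 were at least 2-fold above the higher single cytokine as well. The higher single level was that with IL-1β for 333 of the 476 and that with IFN-γ for 143. *Neurl3*, a ubiquitin ligase gene, was at 0, 125, 12.7 and 666 CPM by library (untreated, IL-1β alone, IFN-γ alone, combined), and *Actg1*, for cytoplasmic actin, at 942, 1991, 1124 and 3325 CPM.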

How the data were processed

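Single-cell RNA sequencing (10x Genomics) was performed on 4 samples of mouse islets, 1 library per condition. The authors counted UMIs with Cell Ranger against mm10, per the submitters' processing notes, and the matrix headers give software version 3.0.0. The deposited values are raw UMI counts, without normalization, and were checked to be whole numbers. Depth was 50731370 UMIs untreated, 20056630 for IL-1β, 31209339 for IFN-γ and 25716645 for both, so the libraries differ in precision.

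δ-Cells were chosen as stated above. β-cells had at least 10% insulin UMIs and under 1% each of *Sst*, *Gcg* and *Ppy*. α-Cells had at least 2% *Gcg*, above *Ppy*, with insulin under 2% and *Sst* under 1%. Endothelial cells and macrophages had at least 3 of 6 and 4 of 7 markers, with *Sst* and *Gcg* each under 2% and insulin under 10%. UMIs were summed over the δ-cells of a library and scaled to 1000000 (CPM). Ratios have exact conditional (Clopper-Pearson) 95% intervals, levels exact Poisson intervals and shares exact binomial intervals. All cover counting error only. The study's test over cells was not used, since cells are not replicates.

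Genes are named by rank: the 15 highest lower bounds and 10 lowest upper bounds of the ratio to untreated, without the 5 genes of the rule and mitochondrial genes, the 8 highest lower bounds over the higher single cytokine, the 5 largest gains and losses in CPM, *Nos2* and the δ-cell markers, and members of 39 gene lists. Other named members, *Adgrb3* and *Rgs4* were chosen after their values were seen, and some genes are not reported here. The members and lists were chosen with earlier results of these data known. Alternatives to the cell limits, scaling, thinning, UMI minimum and fold were tried. Scripts ran in Python 3.11.15 with numpy 2.4.6, scipy 1.17.1, pandas 2.3.3 and scanpy 1.11.5, and were tested on simulated data.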

Additional observations from a re-analysis of the deposited data

Results flagged for a closer look

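Of the genes with at least 50 UMIs in both the δ- and the β-cells, 2 differed at least 2-fold with both cytokines from untreated in opposite directions in these cell types. *Adgrb3*, which encodes an adhesion G protein-coupled receptor, was 2.84-fold higher in δ-cells with both cytokines (1.66 to 5.08; 35.8 CPM and 18 UMIs untreated, 102 CPM and 65 UMIs with both), whereas in β-cells its ratio was 0.338, from 6.46 to 2.18 CPM. *Rgs4*, a regulator of G protein signaling, had a ratio of 0.297 in δ-cells (0.159 to 0.529; 89.6 CPM and 45 UMIs untreated, 26.6 CPM and 17 UMIs with both), 3.37-fold lower, whereas in β-cells it was 6.08-fold higher, from 37.7 to 229 CPM. With 1 library per condition the difference between the cell types was not tested.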

How the results depend on the processing

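All 41 named genes stayed on the same side of 2-fold under all 12 alternatives. *Ptprz1*, close to 1, ranged from 0.959 to 1.16. In 54 cases a ratio moved beyond its interval, and the ranges were wide for *Hspa1a* (46.8 to 1452), *Cxcl10* (595 to 2079), *Ifitm3* (16.4 to 209), *Cxcl1* (40.8 to 431), *Gbp4* (98.9 to 1046), *Gbp6* (28.2 to 294) and *Neurog3* (0.00818 to 0.0854). Median ratios of lists that moved by over 1.5 times were those of guanylate-binding proteins (32.7 after thinning, 114 without the upper gene limit), immunity-related GTPases (61.1, against 31.2 and 108 under these), macrophage markers (0.907, against 1.39 after thinning), chemokines (31.2 after thinning, 37.1 with *Sst* at 5% or more), adhesion genes (9.17, 37.0 and 9.80 under these 3 settings in the order thinning, no upper limit, *Sst*), cytokines and growth factors (7.31 and 19.0 for the first pair), feedback genes (8.73 after thinning), acute-phase genes (9.59 without the upper limit), antiviral effectors (15.1 with *Sst* at 5% or more) and heat shock chaperones (1.66 without *Hspa1a*-high cells). The STAT and IRF genes that were higher fell from 8 to 7 under 4 alternatives, the C/EBP genes from 3 to 2 under 4 and the survival and death genes from 6 to 5 under 4. Unfolded protein response genes, 4 higher and 3 lower, became 2 and 2 without *Hspa1a*-high cells, 4 and 1 with *Sst* at 5% or more and 3 and 1 after thinning. Other lists changed by at most 2 genes in either direction. The number of δ-cells and the gene counts follow the limits. Genes at least 2-fold higher than untreated numbered 289 with each cell thinned to 4000 UMIs (257 of them among the 476), 799 with at least 20 UMIs, 2118 with at least 1 UMI and 295 at 3-fold. Genes at least 2-fold lower numbered 590 without the upper gene limit, 219 with *Sst* at 5% or more, 159 after thinning, 1033 and 3322 at 20 and 1 UMIs, and 102 at 3-fold. Genes above the higher single cytokine numbered 2117 at 1 UMI and 55 at 3-fold, and those below the lower single cytokine 242 after thinning, 805 and 1319 at 20 and 1 UMIs, and 80 at 3-fold. Fewer genes were tested after thinning (1660). With hormone genes left out of the totals the median over all genes moved to -0.12 on the log2 scale. Chosen after seeing the data, subtracting β-cell RNA at the level of *Ins2* gave 480 higher and 337 lower genes. No paired analysis was possible because each condition had 1 library, and for the same reason no replicate could be left out. The 59 untreated δ-cells limit what can be read of genes low in that library.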

Other observations

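Genes of glycolysis in δ-cells were mostly within 2-fold of untreated with both cytokines. Of 17 genes of glycolysis and hypoxia, 12 passed the limit of 50 UMIs, with a median ratio of 0.816. Among them 1 was at least 2-fold higher and 1 lower, beside 13.9% and 10.0% of all genes. *Pfkp*, a phosphofructokinase, was at 65.7 CPM untreated, 145 CPM under IL-1β, 42.1 CPM under IFN-γ and 228 CPM under both, and *Eno1*, an enolase, was at 161, 86.3, 69.0 and 75 CPM. *Hk2*, a hexokinase, had no untreated UMI and was at 63.8 CPM with IL-1β and 71.9 CPM with both, but had too few UMIs for the limit. Prostaglandin genes were sparse, with *Ptges3* (1.65) past the limit and *Ptgs2*, the inducible cyclooxygenase, at 0, 21.3, 1.59 and 18.8 CPM.

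*Nts*, which encodes neurotensin, had no untreated UMI and was at 5.0 CPM under IL-1β, 14.3 CPM under IFN-γ and 78.2 CPM under both. The combined level was 13.1-fold the untreated limit. *Gal*, for galanin, was at 1.99, 87.5, 21.4 and 17.2 CPM and so was high in the IL-1β library. *Ffar4*, a fatty acid receptor, was at 99.5 CPM untreated and 54.7 CPM with both, and of 17 receptor genes of δ-cells the 3 past the limit were within 2-fold. *Gadd45b*, a stress and growth arrest gene, was at 3.98, 139, 17.5 and 324 CPM, while the p53 targets *Cdkn1a* (1.16) and *Mdm2* (0.785) were within 2-fold. *Muc1*, listed as a ductal marker, was at 1.99 CPM untreated, 100 CPM under IL-1β, 7.14 CPM under IFN-γ and 57.8 CPM under both, while *Krt19*, another of these markers, had 1 UMI in each library.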
